A study of Pyrus syriaca and Pyrus pyrifolia and Pyrus communis with 12 samples.

Results

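The miR families numbered 5000 or more are called young here because they were numbered late in miRBase. They carry the names of apple (mdm), peach (ppe) or strawberry (fve), species of the rose family (Rosaceae). The age of these families and their restriction to Rosaceae were not tested. They were taken by the digits after miR in the name of each mature miR, without use of any read count. The rule found 184 of the 355 mature sequences, in 138 families, and the 171 other sequences belong to families with lower numbers. Reads were found for 35 of the 184 young sequences (19.0%), against 85 of the 171 older ones (49.7%).

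Small RNA was sequenced from stigma exudates and from the stigmas below them, both at 12 HAA (hours after anthesis) and without pollination, with 1 library of each tissue from each of 6 pear genotypes. The wild trees were 3 P. syriaca populations, Golan (altitude 900 m), Manara (450 m) and SASA (830 m). The cultivated trees stood at 430 m and were the P. pyrifolia cultivars Hosui and Shinsui and the P. communis cultivar Spadona. All flowers opened on cut branches in a growth room, and the exudate was taken without damage to the stigma. Genotypes were the replicates, so the spread between libraries holds genotype, site and library together, and wild and cultivated trees cannot be told apart from their sites of growth.

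A plant miR is cut from a hairpin transcript, enters an ARGONAUTE protein and guides it to transcripts with a nearly complementary site, which are cleaved opposite the middle of the miR or translated less. Old families are shared by most land plants and regulate conserved genes of development. Families that arose late are mostly known from 1 lineage, are usually weakly expressed and have few proven targets. Whether each family counted as young here is of this kind was not tested. In Rosaceae, miR7122 is known as a family that acts on transcripts of pentatricopeptide repeat (PPR) proteins, which bind organelle RNA.

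At least 2 reads in a library, the minimum for presence used in the study, were reached by 14 of the 184 young miRs. Their sequences are shown because all later values concern them, from 5′ to 3′, with the seed (bases 2 to 8) in capitals. The 4 lines of the miR7120, miR7121 and miR7124 families are the most read.

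mdm-miR7120a-3p: cAGUCUGAcaauauaacgugc
mdm-miR7121a: uCCUCUUGgugaucgcccugu
mdm-miR7121d: uCCUCUUGgugaucgcccugc
mdm-miR7124a: cACCAAUAucaacuuuauuug
mdm-miR7122a: uUAUACAGagaaaucacggucg
mdm-miR5225a: uCUGUCGAaggugagauggugc
mdm-miR10984a-5p: gGUAAUUGacugugaaaucgu
mdm-miR10986: uGGCACCAaagucaccacccg
mdm-miR10994-5p: uAUGGUUAagaaacaagcaga
mdm-miR10995: cAAGCUUCcucuucauacucgu
mdm-miR11003: aCACAAUAuacgaugaacaga
mdm-miR11010: aGUAACUAuagcuguuuucua
mdm-miR11011a: aAGUUCAUucaaacaccaugu
mdm-miR11011b: uAAGUUCAuccaaacaccaua

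All 14 are apple miRs. The miR7121a and miR7121d sequences share the seed CCUCUUG and differ at the last base only, and each stands for several apple names with the same letters, 3 names for miR7121a and 5 for miR7121d. The assignment of reads allowed 7% mismatches, which is 1 base in such a miR, so a read can match both. Their counts were equal in 3 of the 6 libraries with a read of either, and the number of reads assigned to both is not given by the counts. The miR11011a and miR11011b sequences are shifted by 1 base and differ at 2 of 20 overlapping bases. No read young miR was close to an older family: the nearest older sequence differed at 4 to 8 bases.

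The apple precursors lie on contigs, at positions that the count table gives without naming the genome build. The precursor of miR7121d was at 378 to 498 on contig MDC006081.961 (minus strand), that of miR7121a at 4104 to 4235 on MDC009272.709 (minus strand), and that of miR7120a at 3632 to 3812 on MDC017840.207 (plus strand). miR7124a had 2 precursor positions, the first at 7472 to 7623 on MDC001716.95 (plus strand). No gene annotation was used for these contigs.

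The libraries were shallow. Exudates held 27 to 176 miR reads (422 in all) and stigmas 199 to 1777 (5276 in all), so a miR without a read can still hold up to 1.70% of the deepest exudate and 11.1% of the shallowest one (3 reads of the total). Intervals and limits cover counting error only. P. syriaca stigmas held 4228 reads and cultivated stigmas 1048, and depth thus runs with the species.

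Whether a young miR was read went with the species in which it was described. Reads were found for 30 of the 65 young apple miRs (46.2%), 5 of the 80 young peach miRs (6.25%) and 0 of the 39 young strawberry miRs, for which the 95% Wilson interval reaches 8.97%. Of the older miRs under strawberry names 20 of 43 had reads (46.5%). Of the older apple miRs 55 of 87 had reads (63.2%), and of the older peach miRs 10 of 41 (24.4%). Apple is the closest relative of pear among the 3 species. The part of sequence difference between pear and these species in the read counts was not tested.

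**Figure D1:**
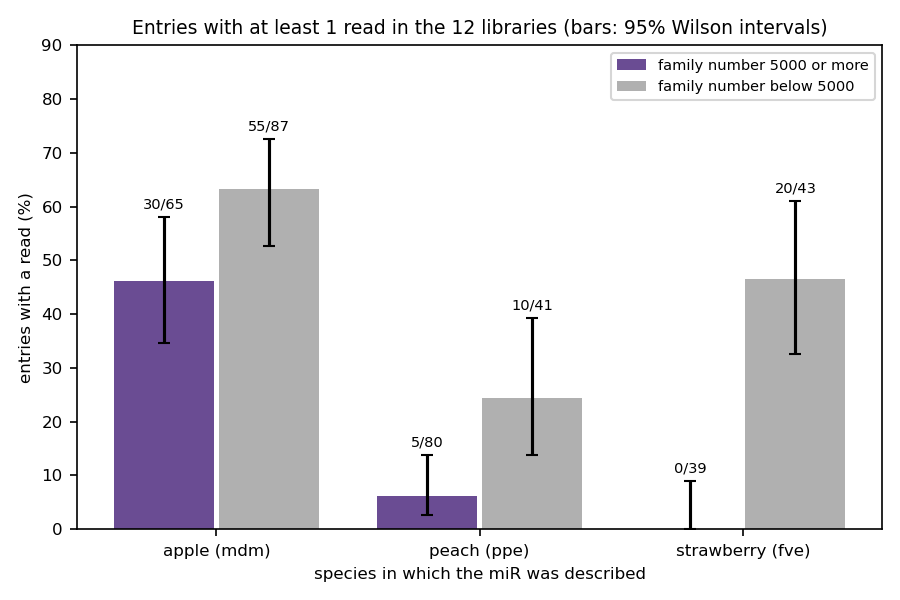
Percent of entries with at least 1 read in any of the 12 libraries (y axis) by the species in which the miR was described (x axis), for family numbers of 5000 or more (purple) and below (grey), with 95% Wilson intervals over entries and the counts above the bars. Young apple miRs were read in 30 of 65 cases, young strawberry miRs in 0 of 39. A sequence shared by several species is counted under the 1 name kept for it.

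Within apple, the miR7120 to miR7128 families were the most read. They gave 80 reads over 7 of 12 entries, 11 of them in exudates and 69 in stigmas. The larger block of apple families 10978 to 11020 gave 57 reads over 22 of 51 entries, 3 in exudates and 54 in stigmas. Peach families 6257 to 6297 gave 9 reads over 4 of 51 entries. mdm-miR5225a gave 8 reads, while the peach and strawberry forms of miR5225 had none.

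Young miRs were rare wherever they were read. The median was 2 reads per read member over the 12 libraries, against 6 for the older miRs with reads, and 15 of the 35 had a single read. The most read member had 27 reads, against 2000 for the most read older miR. In total young miRs took 17 of 422 exudate reads (4.03%) and 139 of 5276 stigma reads (2.63%). Of these exudate reads 5 were counted for miR7121d and 4 for miR7121a. A read assigned to both would be counted in each, and the summed shares below share this limit.

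By genotype, the summed share in P. syriaca exudates was 8% for Golan (4 of 50 reads), 1.14% for Manara (2 of 176) and 7.41% for SASA (2 of 27), and in cultivated exudates 12.2% for Hosui (5 of 41), 3.80% for Shinsui (3 of 79) and 2.04% for Spadona (1 of 49). In P. syriaca stigmas the share was 1.63% for Golan (27 of 1657), 2.48% for Manara (44 of 1777) and 4.16% for SASA (33 of 794), and in cultivated stigmas 3.86% for Hosui (13 of 337), 5.03% for Shinsui (10 of 199) and 2.34% for Spadona (12 of 512). The exudate share was higher than the stigma share in 3 genotypes (Hosui, Golan and SASA) and lower in the other 3. The means were 5.76% ± 4.20 in exudates and 3.25% ± 1.30 in stigmas (SD, n = 6 each), and the ranges overlapped. Had each exudate held the stigma share of its own genotype, 13.0 member reads would be counted in exudates, against 17 observed. Among stigmas the share was 2.75% ± 1.29 in P. syriaca and 3.74% ± 1.34 in cultivated genotypes (SD, n = 3 each), again with overlap.

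**Figure D2:**
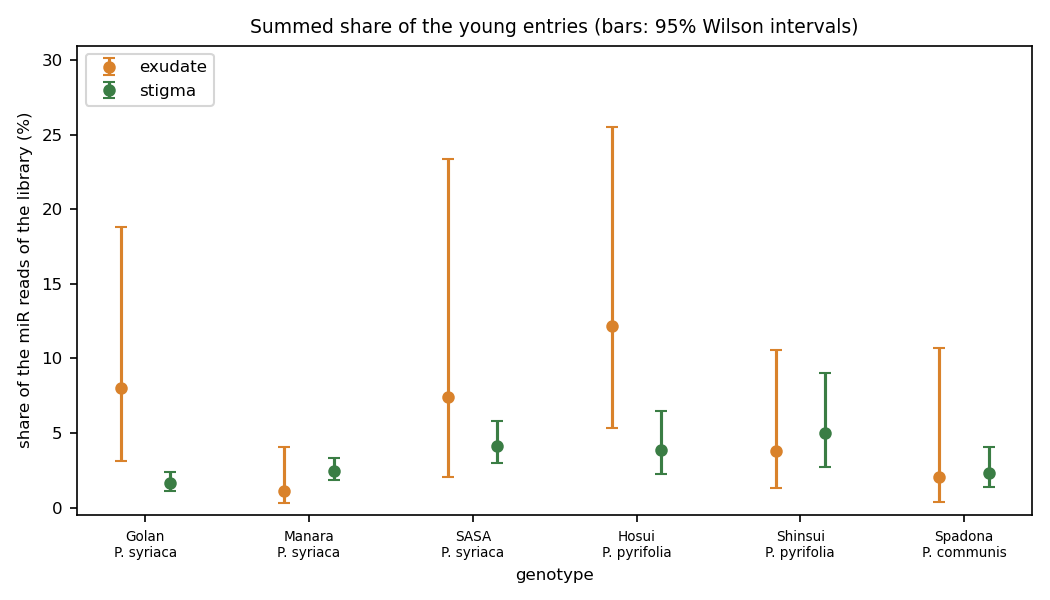
Summed share of the young miRs in the miR reads of each library (y axis, percent) for 6 genotypes (x axis), with exudates in orange, stigmas in green and 95% Wilson intervals. Exudate shares ran from 1.14% to 12.2% with wide intervals and stigma shares from 1.63% to 5.03%, and the 2 tissues overlapped.

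Fewer kinds of young miR were read in exudates (422 reads in all) than in the deeper stigmas (5276 reads). Reads were found for 9 members in exudates and 33 in stigmas, 7 of them in both. Older miRs with reads numbered 52 in exudates and 81 in stigmas. No count at equal depth was made between the tissues, so the part of depth in these numbers was not tested. At 2 reads or more, 3 members were present in exudates and 14 in stigmas, against 25 and 57 older miRs. The 3 present in both tissues were miR5225a, miR7121a and miR7121d. Another 8 were present in stigmas without any exudate read: miR7122a, miR7124a, miR10984a-5p, miR10986, miR10994-5p, miR10995, miR11003 and miR11010. The remaining 3 (miR7120a-3p, miR11011a and miR11011b) had a single exudate read, below the minimum. Even the most read of the 8, miR7124a, would give only 2.38 exudate reads in all at its stigma share, and the other 7 fewer than 1 each, so their absence from exudates was not detectable at this depth.

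**Figure D3:**
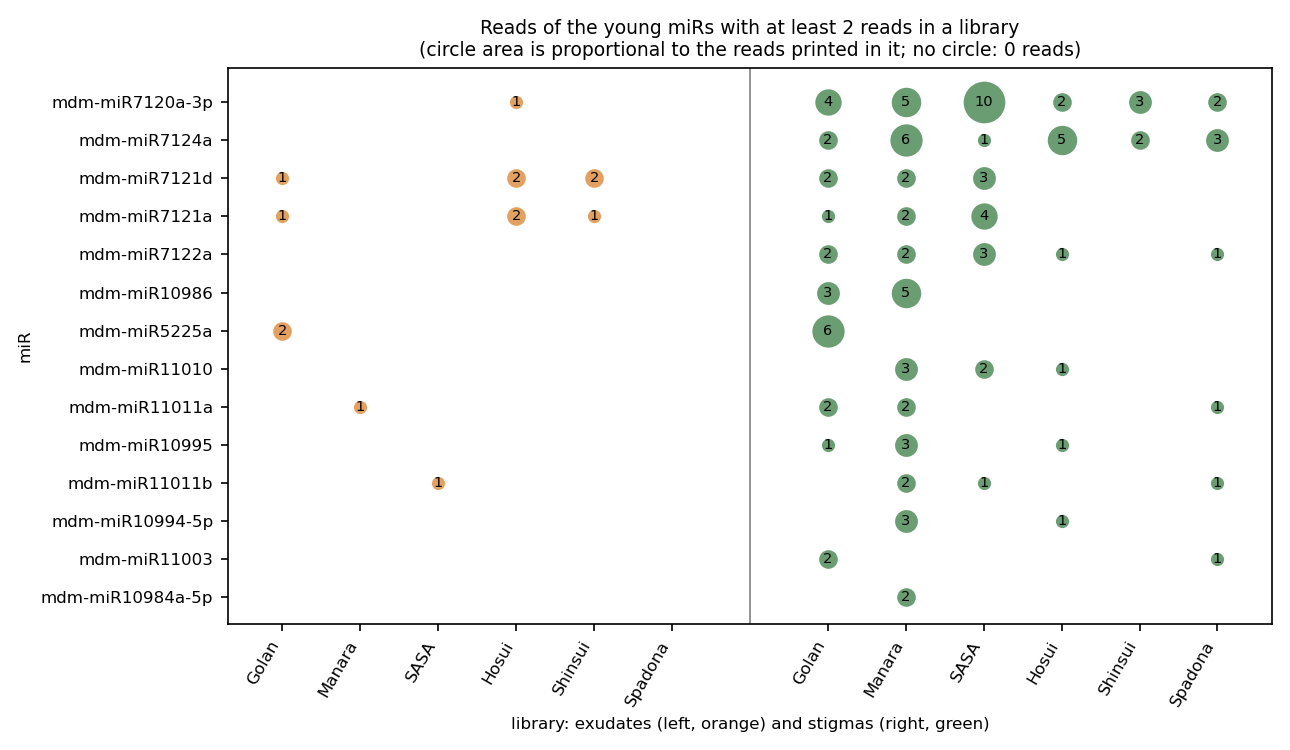
Reads of the 14 young miRs with at least 2 reads in a library (y axis) in each of the 12 libraries (x axis, exudates left in orange and stigmas right in green), where circle area and number give the reads. miR7120a-3p and miR7124a had reads in all 6 stigmas, and miR7121a and miR7121d were read in 3 exudates and in the 3 P. syriaca stigmas.

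The miR7121 pair had more exudate reads than any other young miR. mdm-miR7121d had 1 read in Golan, 2 in Hosui, 2 in Shinsui and 0 in Manara, SASA and Spadona exudates, against 2 in Golan, 2 in Manara, 3 in SASA and 0 in Hosui, Shinsui and Spadona stigmas. Hosui and Shinsui thus had reads of it in the exudate and none in the much deeper stigma library, and Manara and SASA the other way round. Its mean share was 1.57% ± 1.97 in exudates and 0.102% ± 0.147 in stigmas (SD, n = 6 each), which placed it 9th of 61 miRs read in exudates and 51st of 114 in stigmas. The Hosui exudate, with 2 of 41 reads, carried much of this: the mean difference in share was 1.47 percentage points over all genotypes and 0.784 without Hosui. mdm-miR7121a had 1, 2 and 1 reads in the Golan, Hosui and Shinsui exudates and 0 in the other 3, against 1 in Golan, 2 in Manara, 4 in SASA and 0 in the cultivated stigmas. Its mean share was 1.36% ± 1.92 in exudates and 0.113% ± 0.197 in stigmas, 12th and 48th in the order of miRs. It fell below the 10 reads needed for a test without Hosui, and likewise without Golan, without Manara or without SASA.

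The tissues were compared over the 35 miRs with at least 10 reads by the quasi-likelihood test of edgeR, adjusted after Benjamini and Hochberg. It called 1 of them (2.86%), the older mdm-miR169a, and none of the 4 young miRs tested. With TMM and with DESeq2 7 of the 35 were called, all lower in exudates and none of them young. At an unadjusted p under 0.05 it had 9 of 35 (25.7%), of which 2 were young, miR7121d and miR7121a. The log2 fold change of miR7121d, exudate over stigma, was 3.14 (SE 1.16, edgeR adjusted p = 0.0887). It ran from 1.99 to 3.59 over the 8 alternatives that kept this miR among those tested, with adjusted p from 0.0307 to 0.280, and passed the threshold only without the Manara libraries (3.59, edgeR adjusted p = 0.0307). The value of miR7121a was 2.78 (SE 1.19, edgeR adjusted p = 0.139). With genotype as a block the test called 2 miRs and no young one, and miR7121d had a log2 fold change of 3.00 (edgeR adjusted p = 0.138). Scaling by TMM in place of library totals moved the median log2 fold change of all tested miRs by -1.15, and the 4 young miRs kept their direction. Over genotypes the share of miR7121d was higher in exudates in 3 and lower in 2, and an exact two-sided sign-flip test gave p = 0.25 (adjusted p = 0.398 over 35 miRs).

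**Figure D4:**
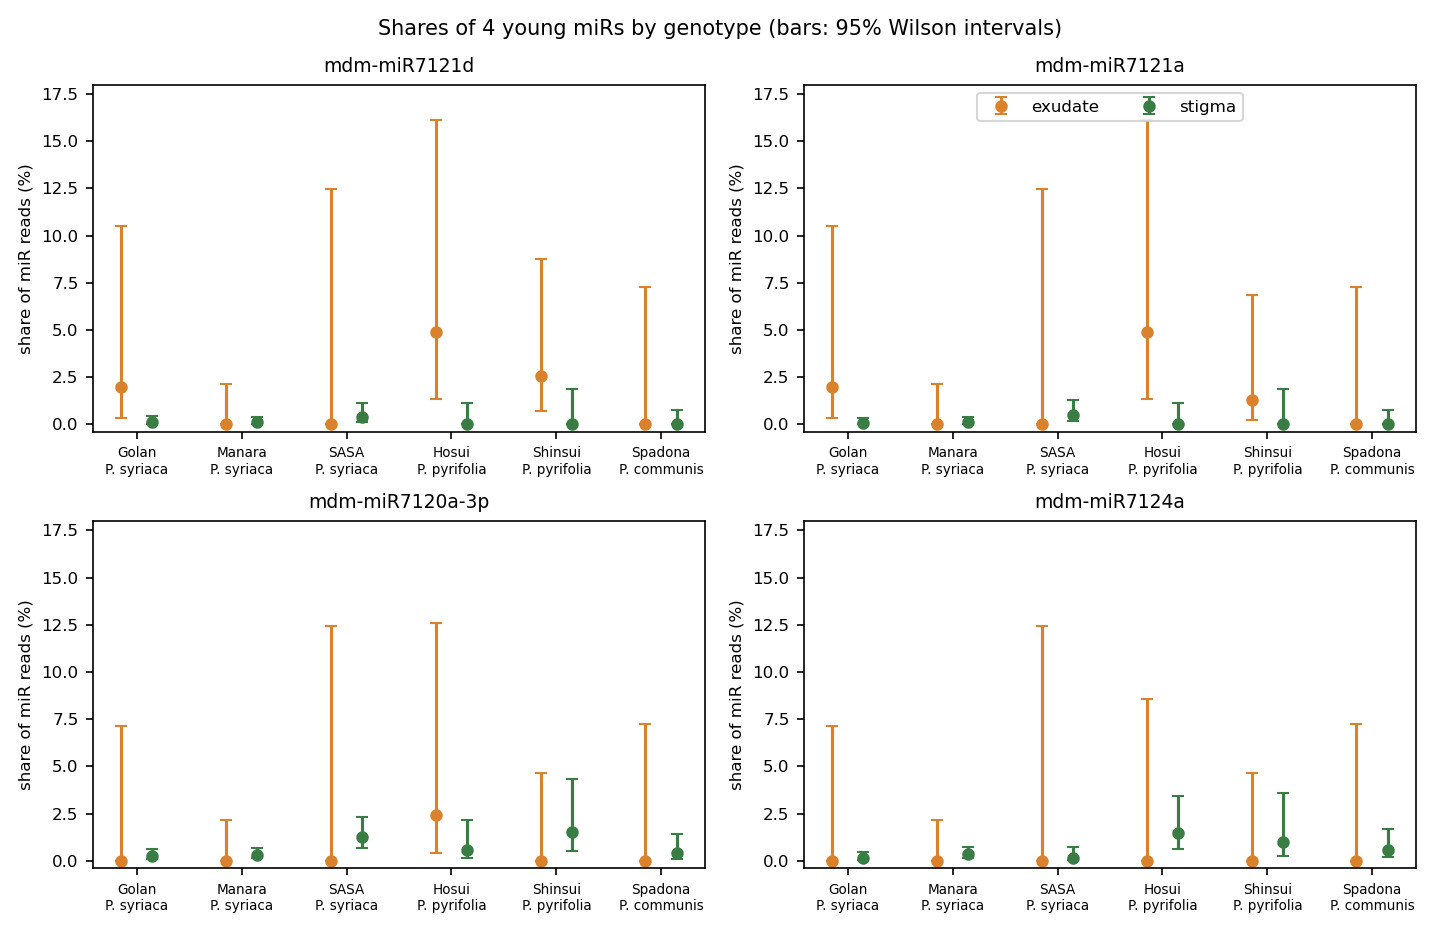
Share of the miR reads (y axis, percent) of the 4 young miRs with at least 10 reads in 6 genotypes (x axis), with exudates in orange, stigmas in green and 95% Wilson intervals. miR7121d reached 4.88% in the Hosui exudate and at most 0.378% in a stigma, and the intervals of most exudates reach over the stigma values.

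mdm-miR7120a-3p and mdm-miR7124a were the leading young miRs of the stigma and the only ones with reads in all 6 stigmas. Together they held 45 of the 139 young stigma reads (32.4%). mdm-miR7120a-3p had 1 read in the Hosui exudate and 0 in the other exudates, against 4, 5 and 10 in the Golan, Manara and SASA stigmas and 2, 3 and 2 in those of Hosui, Shinsui and Spadona. Its share was 0.407% ± 0.996 in exudates and 0.712% ± 0.540 in stigmas, and the log2 fold change was -1.21 (SE 1.56, edgeR adjusted p = 0.528). It ran from -4.76 to -0.68 over 10 alternatives (edgeR adjusted p from 0.216 to 0.876), and the lowest value was that without Hosui, which leaves the exudates without a read.

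mdm-miR7124a had 0 reads in all 6 exudates, against 2, 6 and 1 in the Golan, Manara and SASA stigmas and 5, 2 and 3 in those of Hosui, Shinsui and Spadona. Its share was thus lower in exudates in 6 of 6 genotypes, as were the shares of 3 of 35 miRs (8.57%). The exact sign-flip test gave p = 0.03125, the smallest it can give (adjusted p = 0.273). With 0 reads in every exudate and a read in every stigma, this direction and this p were fixed. They do not show a lower share, since the limit for 0 reads was at least 1.70% in each exudate and its stigma shares at most 1.48%. edgeR gave an adjusted p of 0.295. A count of 0 among 422 exudate reads allows a share of up to 0.711%, above the 0.360% that miR7124a held of all stigma reads, so no fold is given.

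Among stigmas, 2 young miRs had the 10 reads needed for a test of wild against cultivated trees, and the libraries of these groups did not overlap for miR7124a. Its share was 0.121% in Golan, 0.338% in Manara and 0.126% in SASA, against 1.48% in Hosui, 1.01% in Shinsui and 0.586% in Spadona. All P. syriaca stigmas thus lay below all cultivated ones, as for 2 of the 30 miRs tested (6.67%), while 7 of the 30 (23.3%), none of them young, lay above. The means were 0.195% ± 0.124 in P. syriaca and 1.02% ± 0.449 in cultivated genotypes (SD, n = 3 each). The exact permutation test gave p = 0.1, the smallest that 3 against 3 allows (adjusted p = 0.333). The log2 fold change was -2.18 (SE 1.16, edgeR adjusted p = 0.206), from -2.93 to -1.77 over 10 alternatives (adjusted p from 0.130 to 0.727). edgeR called 0 of the 30 miRs in this comparison (0%), and 8 (26.7%) had an unadjusted p under 0.05, while DESeq2 called 0 and had 1.

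mdm-miR7120a-3p did not separate the species. Its share was 0.594% ± 0.577 in P. syriaca and 0.831% ± 0.595 in cultivated stigmas, with overlap, and the log2 fold change of -0.44 (SE 1.16, edgeR adjusted p = 0.812) turned to 0.13 without Shinsui. The miR7121 pair had stigma reads in P. syriaca alone, 7 of 4228 for each sequence (0.166%). The 0 reads in cultivated stigmas (of 1048) allow a share of up to 0.286%, so a difference was not detectable at this depth.

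More young miRs were read in P. syriaca stigmas, and the excess went with depth. Members read numbered 12 in Golan, 19 in Manara and 16 in SASA, against 8 in Hosui, 7 in Shinsui and 9 in Spadona. Of the 33 members with stigma reads, 17 were read in P. syriaca only, 5 in cultivated genotypes only and 11 in both. Present at 2 reads or more were 14 in P. syriaca and 2 in cultivated stigmas (miR7120a-3p and miR7124a), while of the older miRs 57 and 25 were. At an equal depth of 199 reads the expected number of members read was 4.40 ± 1.56 in P. syriaca and 5.49 ± 1.44 in cultivated stigmas (SD, n = 3 each), and the ranges of 2.87 to 5.99 and 4.12 to 7 overlapped. The same number for the older miRs was 26.8 ± 3.46 in P. syriaca and 24.8 ± 1.67 in cultivated stigmas. In exudates, the members present were miR5225a in Golan, miR7121a in Hosui, and miR7121d in Hosui and Shinsui, and none in the other 3 exudates.

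Of the other members, mdm-miR5225a was read in a single genotype. It had 2 reads in the Golan exudate and 6 in the Golan stigma and none in the other 10 libraries. Its share was 0.362% of the Golan stigma reads, and the limit for a count of 0 was below this in the Manara stigma alone (0.169%). The limits of 0.378% in SASA, 0.890% in Hosui, 1.51% in Shinsui and 0.586% in Spadona stigmas were above it. mdm-miR7122a, the member of the PPR-related family, had 0 reads in exudates, against 2 in Golan, 2 in Manara, 3 in SASA, 1 in Hosui, 1 in Spadona and 0 in Shinsui stigmas.

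The apple families from 10978 to 11020 had the most reads in the Manara stigma, the deepest library. mdm-miR10986 had 5 reads in Manara and 3 in Golan stigmas. mdm-miR11010 had 3 in Manara, 2 in SASA and 1 in Hosui stigmas, mdm-miR10995 had 3 in Manara, 1 in Golan and 1 in Hosui, and mdm-miR10994-5p had 3 in Manara and 1 in Hosui. mdm-miR11003 had 2 reads in Golan and 1 in Spadona stigmas. mdm-miR10984a gave reads of both hairpin arms in the Manara stigma, 2 of the 5p and 1 of the 3p arm. mdm-miR11011a had 1 read in the Manara exudate, against 2 in Golan, 2 in Manara and 1 in Spadona stigmas. mdm-miR11011b had 1 read in the SASA exudate, against 2 in Manara, 1 in SASA and 1 in Spadona stigmas.

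The rest had at most 1 read in any library. mdm-miR10993a and ppe-miR6267a had 1 read in each of the 3 P. syriaca stigmas. mdm-miR11008 had 1 in SASA, Hosui and Shinsui stigmas, and ppe-miR6282 had 1 in Manara, Shinsui and Spadona stigmas. ppe-miR8122-3p had 1 read in each of the P. pyrifolia stigmas, and ppe-miR6281 had 1 in the SASA exudate and 1 in the SASA stigma. A single read in the SASA stigma was found for mdm-miR10981c, mdm-miR10982a, mdm-miR10991a, mdm-miR10993c and mdm-miR11015, and in the Manara stigma for mdm-miR11000, mdm-miR7126-3p and ppe-miR6285. In cultivated stigmas mdm-miR10990 and mdm-miR10999a each had 1 read in Spadona, and mdm-miR11009 and mdm-miR11020 each had 1 in Shinsui. Exudates alone gave mdm-miR10983 in Manara and mdm-miR7126-5p in Spadona, 1 read each.

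The young miRs differed from the older ones in GC content, and the read ones also in the first base. The first base, by which ARGONAUTE proteins sort miRs, was U in 12 of 35 read members (34.3%), against 52 of 85 read older miRs (61.2%). Among unread sequences the values were closer, 77 of 149 members (51.7%) and 49 of 86 older miRs (57.0%). GC content averaged 42.6% in read and 42.4% in unread members, against 51.0% in read and 50.6% in unread older miRs. A length of 21 bases was found for 26 of 35 read members (74.3%) and 65 of 85 read older miRs (76.5%). These sequences are related within families and are given as a description.

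In the target predictions, made on Arabidopsis transcripts, young miRs had a small part of the exudate table and a larger part of the stigma table. They made 3 of 73 pairings in the exudate table (4.11%), with 2 of 47 loci. In the stigma table they made 33 of 163 pairings (20.2%), with 33 of 120 loci (27.5%). Of the miRs with pairings, 2 of 19 were young in the exudate table and 8 of 23 in the stigma table. The stigma table holds only miRs that the study called stigma specific, a class that rests on the absence of reads in the shallow exudates. Pairings were given for 10 of the 14 present miRs. None were given for miR5225a, although it was present in both tissues. The 3 miRs with a single exudate read have none because the study set such miRs aside before the predictions. Both exudate loci were in the list of 25 pollen-transcribed targets, as were 25 of all 47 loci of the exudate table. None of the 33 stigma loci were, against 4 of all 120 in the stigma table. The list was drawn up for exudate targets.

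Both exudate loci belong to the miR7121 pair. AT5G24880, which the pollen list names a chromo domain cec-like protein, was paired with miR7121a and miR7121d at positions 591 to 611 with 3 unpaired bases. AT3G42640 is HA8 in that list, a proton-pumping ATPase of the kind that energises the plasma membrane. It was listed for miR7121d alone, at 929 to 949 with 4 unpaired bases. The last base of miR7121d, by which it differs from miR7121a, is unpaired at both sites. At the HA8 site this base faces an A, with which the U that ends miR7121a would pair. The listing of HA8 for miR7121d alone thus does not mean that miR7121a fits the site less well. The pairings are shown with Watson-Crick pairs in capitals and G:U or unpaired bases in lower case, the miR first and its site after it, each from 5′ to 3′.

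mdm-miR7121d to AT5G24880, miR: UCCUCUUGgUGAUCgcCCUGc
mdm-miR7121d to AT5G24880, site: uCAGGagGAUCAuCAAGAGGA
mdm-miR7121d to AT3G42640, miR: UCCUCUUGGUGAUcGCcCugc
mdm-miR7121d to AT3G42640, site: aagGuGCcAUCACCAAGAGGA

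The seed of miR7121d was fully paired at both sites, and its first 13 bases were paired by Watson-Crick pairs throughout in HA8. HA8 stood under 9 terms of the exudate GO table, among them binding (34 loci in all) and biosynthetic process (24 loci), and AT5G24880 under none.

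In the stigma table miR7124a had the most predicted loci of the young miRs, 10: AT5G01110, AT1G65440, AT2G11210, AT4G12070, AT5G41150, AT5G37770, AT1G22740, AT3G19830, AT2G16940 and AT5G39920. The pairing with the fewest unpaired bases, to AT5G01110 at 2322 to 2342, left 1 base unpaired but held 3 G:U pairs and 17 Watson-Crick pairs. The pairing to AT1G65440 at 2029 to 2049 had no G:U pair, 2 unpaired bases and 19 Watson-Crick pairs. AT5G37770, paired at 925 to 945 with 3 unpaired bases at the 3′ end of the miR, was the only young-miR locus of the 16 under flower development. These 3 sites are shown for the range of fit.

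mdm-miR7124a to AT5G01110, miR: CACCAAUAUCAACUuuAUuUg
mdm-miR7124a to AT5G01110, site: uAgAUugAGUUGAUAUUGGUG
mdm-miR7124a to AT1G65440, miR: CaCCAAUAUCAACUUUaUUUG
mdm-miR7124a to AT1G65440, site: CAAAgAAAGUUGAUAUUGGaG
mdm-miR7124a to AT5G37770, miR: CACCAAUAUCAACUuuAUuug
mdm-miR7124a to AT5G37770, site: aucAUggAGUUGAUAUUGGUG

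mdm-miR10986 had 7 loci: AT3G11910, AT3G14830, AT2G27150, AT4G34890, AT4G34900, AT5G54160 and AT5G27600. mdm-miR10995 had 4 (AT1G32750, AT1G80940, AT3G63350 and AT2G23430), and mdm-miR10984a-5p had 3 (AT4G06578, AT4G04655 and AT3G27260). mdm-miR11003 had 3 (AT2G41070, AT4G02010 and AT1G76610), all given with the same site letters and 1 unpaired base. A pair of loci was given for each of mdm-miR10994-5p (AT5G18403 and AT1G20760), mdm-miR11010 (AT1G11700 and AT5G48485) and mdm-miR7122a (AT1G62680 and AT2G41080). The site shared by the miR11003 loci is shown because it is among the most complete pairings.

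mdm-miR11003 to AT2G41070, miR: ACACAAUAUACgAuGAACAgA
mdm-miR11003 to AT2G41070, site: UuUGUUCuUuGUAUAUUGUGU

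Of the 33 stigma loci 30 stood under at least 1 term of the stigma GO table, as did 101 of all 120 loci with a predicted pairing. Under nucleus were 14 of its 65 loci, under DNA binding 6 of 48, and under transcription factor activity 4 of 44 (AT1G32750, AT1G65440, AT2G41070 and AT3G63350). Under reproductive process were 2 of 28, AT5G37770 and AT5G41150, both given for miR7124a. Under lipid binding was AT5G48485, 1 of 7, given for miR11010.

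Across the 36 pairings 1 to 4 bases were unpaired, with a median of 2. Bases 10 and 11, between which plant miRs direct cleavage, were paired in 35 of them, the exception being miR7122a on AT2G41080 at base 10. No seed base was unpaired in 21. The prediction scores such positions, so this pattern is part of how the pairings were chosen. The unpaired bases lay mostly at the 3′ end of the miR, at base 21 in 21 pairings and at base 20 in 18.

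**Figure D5:**
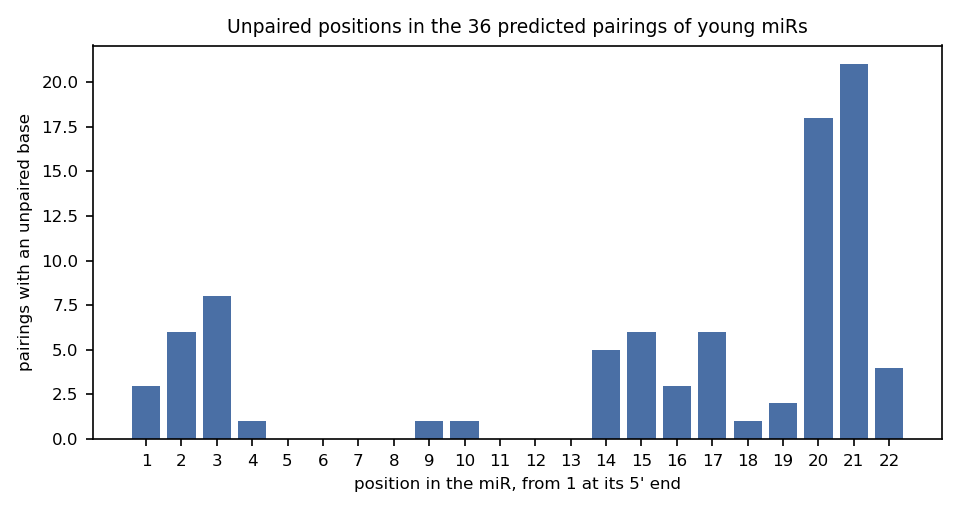
Number of the 36 predicted pairings of young miRs with an unpaired base (y axis) at each position of the miR (x axis, from 1 at its 5′ end). Bases 20 and 21 were unpaired in 18 and 21 pairings, and bases 5 to 8 and 11 to 13 in none.

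Which locus belongs to which pairing is uncertain, because the locus column of both tables has no name. The GO terms above were taken by locus and share this limit. Identical site letters also stood beside different loci at different positions. Examples are the loci of miR11003, AT3G11910 and AT3G14830 of miR10986, and AT1G65440 and AT2G11210 of miR7124a. At 3 sites of young miRs the same position was given for 2 different loci: 2585 to 2605 for miR10986 (AT4G34900 and AT5G54160), 1 site of miR10995 (AT1G80940 and AT3G63350) and 2091 to 2111 for miR7124a (AT2G11210 and AT4G12070). The pairings of letters themselves were recomputed and equalled the deposited ones in 28 of 36, and in the other 8 a G:U pair was given as unpaired. No pear transcript entered these predictions, and no target level was measured.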

How the data were processed

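Counts were deposited by the authors as whole reads per unique mature miR, with no normalization. The reads had been trimmed with cutadapt 1.1 and filtered with FASTX 0.0.14 to 18 to 28 bases. They were assigned with miRExpress 2.0 to the apple, peach and strawberry miRs of miRBase 22, with 7% mismatches allowed. The deposited target tables come from psRNATarget (expectation up to 2.5) and give no score. The p-values and FDR of the deposited GO tables are the authors' own comparisons and were not used, only the loci under each term.

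Tests were run with edgeR 4.0.16 in R 4.3.3 on reads scaled to library totals, over miRs with at least 10 reads (adjusted p threshold 0.05), and as exact permutations in Python 3.11.15 with scipy 1.17.1. Intervals are 95% Wilson intervals. Alternatives were TMM, DESeq2 1.42.0, other filters, the genotype as a block, totals without mdm-miR482d, other minimums for presence, and each genotype left out. Tests were checked on simulated data. For edgeR, recovery of changed miRs was required there only at a depth above that of every library here, and without the 10-read filter. The check thus does not show how well the test works at the depth of these libraries. Both libraries of a genotype are paired by the labels, and the correlation of their deviations from the tissue means ran from -0.12 to 0.60, over 0.1 in 4 of 6 genotypes. The library of the same genotype was the best match in only 2 of 6 genotypes, Shinsui and Golan.

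Every member with a read is named, sequences are shown for members at 2 reads or more, and all their predicted loci are named. The sites shown were chosen after their values were seen. The members and lists were chosen with earlier results of these data known.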

Additional observations from a re-analysis of the deposited data

Results flagged for a closer look

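Of 13 sets of 6 libraries, most of them single members with at least 5 reads in a tissue, 3 held a library marked as outlying. In these the gap to the nearest other library, divided by the whole range, was above Dixon's value of 0.625. For normal values chance marks about 5% of such sets. That rate does not hold for shares of a few reads, and a miR read in 1 library alone passes by construction, so the marks are a description. The share of mdm-miR5225a in stigmas had a ratio of 1, with Golan at 0.362% and all others at 0. The share of mdm-miR7121a in stigmas had a ratio of 0.777, with SASA at 0.504% and the next library at 0.113%. The share of mdm-miR7121d in stigmas had a ratio of 0.681, with SASA at 0.378% and the next at 0.121%. The miR7121 sequences differ by 1 base, so these are hardly separate cases.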

How the results depend on the processing

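Between exudates and stigmas edgeR called 1 miR, against 7 with TMM, 7 with DESeq2, 4 with no filter, 2 with genotype as a replicate block and 0 with edgeR's own filter, which left 3 miRs to test. With 1 genotype left out it called 1 to 3, and 3 without Manara. Between P. syriaca and cultivated stigmas it called 0, against 1 with TMM, 1 with no filter, 3 with the replicate numbers of the labels as a block, 0 with DESeq2, and 0 to 3 with 1 genotype left out (3 without SASA). These numbers pair no trees. Without Shinsui the P. syriaca minus cultivated share difference of mdm-miR7120a-3p turned to 0.102 percentage points and its log2 fold change to 0.13, and without SASA they were -0.57 and -1.36.

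Members present in exudates numbered 3, against 9 at 1 read, 0 at 3 reads and 1 in at least 2 libraries. In stigmas 14 were present, against 33 at 1 read and 8 in at least 2 libraries. Without mdm-miR482d in the totals the summed share was 11.02% in exudates and 6.01% in stigmas. With at most 3 unpaired bases, chosen after seeing the data, 1 exudate locus remained of 2, and 31 stigma loci of 33. The exudate locus lost was HA8, by its listed pairing with miR7121d. A stricter expectation was not run, since the tables used hold none. The causes were not tested. Depth limits all exudate values: with 27 to 176 reads, a single read is 0.568% to 3.70% of a library.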
